A study of Mus musculus with 36 samples.

Results

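Complement and coagulation proteins circulate in blood plasma, and 48 of the genes that encode them or their regulators were followed in mouse liver, out of 38283 genes in the deposited table. They come from a written list of gene symbols that was made with earlier results of these data known, and no measured value enters its rule. All 48 were found, and all 48 passed the filter on low counts. By role they comprised 8 genes that start complement activation, 4 that encode C2, C3, C4 and factor B, 6 of the terminal pathway, 5 complement regulators, 5 of the contact system, 7 vitamin K-dependent proteins, 6 for fibrin, cofactors and von Willebrand factor, 4 coagulation inhibitors and 3 of fibrinolysis.

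Complement is a chain of plasma proteases that marks microbes and damaged cells, and it ends in a pore built from the terminal components. Coagulation is a parallel chain of proteases that ends in thrombin, which turns fibrinogen into fibrin, while plasmin dissolves the clot. Hepatocytes secrete most of these proteins, several of them more strongly during an acute-phase response, whereas C1q and properdin come mainly from macrophages and other blood-derived cells, and von Willebrand factor and thrombomodulin from endothelium.

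The study asked why impaired signalling through PI 3-kinase brings insulin resistance without dyslipidaemia, and it followed liver transcripts through fasting and refeeding. Its 36 male mice, 16 weeks old and on chow, were wild-type (WT) or heterozygous for a truncating allele of Pik3r1, which encodes regulatory subunits of PI 3-kinase (WT/Y657*). Each genotype gave 6 mice in each of 3 states: feeding at will, a 16 h fast, and a fast of that length with chow given back for 6 h. The line is a knock-in on a C57Bl/6J background, reached by 3 or more backcrosses. Gene targeting of C57Bl/6 embryonic stem cells gave the allele, with a neomycin marker between loxP sites. RNA-seq libraries of total liver RNA held between 8839488 and 19542775 counts each, and levels are given as CPM (counts scaled to a common library size). All 10 hepatocyte markers examined were detected in every library, and Alb, which encodes albumin, was the most abundant of them at a median of 50040 CPM (lowest 30030, highest 69950).

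Pik3r1 itself was measured first. Its median was 132 CPM in fed WT mice (lowest 119, highest 158) and 133 CPM in fed WT/Y657* mice (115 to 182). In fasted mice the medians were 94.3 CPM (82.4 to 106) in WT and 99.1 CPM (74.5 to 112) in WT/Y657*. Refed mice had medians of 124 CPM (116 to 139) in WT and 152 CPM (128 to 166) in WT/Y657*. The genotypes overlapped in every state, and these levels do not check the genotype labels.

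Mice are named by state, genotype and number as labelled: ALC fed, ONF fasted, RF6 refed, WT wild-type, MT WT/Y657*. No mouse number occurs in more than 1 group. The fed mice fall into 3 runs of numbers. ALC_WT_847 to ALC_WT_850 are all WT, ALC_WT_856 to ALC_WT_860 hold 2 WT and 3 WT/Y657* mice (the mixed run below), and ALC_MT_866, ALC_MT_868 and ALC_MT_869 are all WT/Y657* (the last run). Fasted and refed mice come from other runs, a lower one (ONF_MT_806 to RF6_WT_828) and an upper one (RF6_WT_896 to ONF_MT_923), with 3 mice of each genotype and state in each. Genotype in the fed state is therefore partly, and fed against either other state wholly, tied to the run of numbers and cannot be told apart from it.

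A few libraries stood apart in acute-phase transcripts, a list of 20 genes such as the serum amyloids and haptoglobin. Their summed level was 49800 CPM in ALC_WT_847, 41450 CPM in ALC_WT_849, 31630 CPM in RF6_MT_898, 29530 CPM in ONF_WT_807 and 26510 CPM in RF6_WT_828. The other 31 mice lay between 10310 and 20690 CPM. Several members were highest in the same 5 mice, as the plot of fibrinogen beside the acute-phase sum shows, so members were also fitted with these 5 libraries left out, a choice made after the values were seen. Calls then went from 21 to 20 in WT and 20 to 22 in WT/Y657* mice for fasting, from 16 to 14 and 13 to 17 for refeeding, from 27 to 25 and 25 to 25 for refed against fed mice, and from 2 to 0, 7 to 5 and 0 to 0 between fed, fasted and refed genotypes. Shares of all genes called in that fit are not given, so these shifts cannot be told apart from a shift over all genes.

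Transcript levels in fed WT liver spanned a wide range. Per kilobase of exon, the median level was 1946 CPM for Fga and 1900 CPM for Fgg, which encode fibrinogen chains, and 1720 CPM for C3, the central component of complement. Next in that order came Fgb, the remaining fibrinogen chain, at 1360 CPM per kilobase and Vtn, the terminal-pathway inhibitor vitronectin, at 1210. The lowest were Thbd (thrombomodulin) at 1.51, Tfpi (tissue factor pathway inhibitor) at 1.41 and Vwf (von Willebrand factor) at 0.916 CPM per kilobase. These last are genes of endothelium more than of hepatocytes.

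A fast of 16 h was followed by lower transcript levels of many members and a rise of few. A gene is called where the adjusted p of edgeR's quasi-likelihood test (two-sided, Benjamini-Hochberg over all 13945 genes tested) is under 0.05. In WT mice 21 of 48 members were called in the fasted against the fed state, all 21 lower. That is 43.8% of the members, against 32% of all genes tested, and the median log2 fold change was -0.21 over the members and 0.010 over all genes. The 5 largest falls were those of F11 (coagulation factor XI, -1.48 ± 0.17, standard error throughout), C6 (-1.40 ± 0.18), C8b (-1.26 ± 0.16), C9 (-1.24 ± 0.17) and C8a (-1.01 ± 0.15), the last 4 being terminal complement components. Adjusted p ranged from 1.48e-08 for F11 to 2.62e-06 for C8a.

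In WT/Y657* mice 20 of 48 members were called in the same comparison (41.7%, against 32.9% of all genes tested), 19 lower and 1 higher. The member median was -0.21, the median of all genes -0.0079. The largest falls were F11 (-1.15 ± 0.16), C8b (-0.81 ± 0.16), C8a (-0.78 ± 0.15), C9 (-0.77 ± 0.16) and Proz, an anticoagulant cofactor (-0.63 ± 0.08). F9, coagulation factor IX, was the gene that rose, by 0.23 ± 0.06 (adjusted p = 0.003), and it was no longer called (adjusted p = 0.0552) when the 3 mice of the last run were left out, a setting added after their values had been seen. The genotypes' fasting comparisons share no mice, and 15 members were called lower in both (31.2%, against 10.1% of all genes).

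Refeeding for 6 h changed fewer members, in both directions. In WT mice 16 of 48 were called in the refed against the fasted state (33.3%, against 30.2% of all genes), 4 higher and 12 lower. Those that rose were F11 (1.01 ± 0.16), C6 (0.50 ± 0.18), the lectin-pathway protease Masp1 (0.26 ± 0.09) and Serpind1, heparin cofactor II (0.19 ± 0.07). The largest falls were Fga (-0.61 ± 0.19), Fgg (-0.58 ± 0.17), Fgb (-0.55 ± 0.19), Serping1, the C1 inhibitor (-0.50 ± 0.11), and Vwf (-0.42 ± 0.14). Thrombin's precursor F2 also fell, by 0.22 ± 0.06 on the log2 scale.

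In WT/Y657* mice 13 of 48 members were called (27.1%, against 31.3% of all genes), 5 higher and 8 lower. F11 (0.73 ± 0.16), Serpind1 (0.39 ± 0.07), Proz (0.35 ± 0.08), Masp1 (0.32 ± 0.09) and Serpinf2, the plasmin inhibitor (0.32 ± 0.11), rose. Thbd (-0.75 ± 0.21), C8g (-0.54 ± 0.18), Vwf (-0.53 ± 0.14), Fgg (-0.53 ± 0.17) and C9 (-0.47 ± 0.16) fell most. In total these shares lie near those of all genes, but by direction they do not in WT: 25% of members were lower and 8.33% higher, against 13.7% and 16.5% of all genes. In WT/Y657* 16.7% were lower and 10.4% higher, against 14.2% and 17.1%. These comparisons use the fasted mice named above as their control.

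Refed mice still lay below fed mice for many members. In WT liver 27 of 48 were called in the refed against the fed state, all 27 lower (56.2%, against 27.5% of all genes), and in WT/Y657* liver 25 of 48, all 25 lower (52.1%, against 26.1%). Member medians were -0.38 and -0.29, where the medians of all genes were 0.016 and -0.0016. The 5 largest falls in WT were C9 (-1.37 ± 0.17), Fga (-1.28 ± 0.19), Fgg (-1.17 ± 0.17), Fgb (-1.16 ± 0.19) and Cpb2 (-1.11 ± 0.12), which encodes a carboxypeptidase that slows clot lysis. In WT/Y657* they were C9 (-1.24 ± 0.17), C8b (-0.97 ± 0.16), C8a (-0.76 ± 0.15), Cpb2 (-0.71 ± 0.12) and C2 (-0.69 ± 0.11). The comparisons with fed mice share those fed mice, so their calls are not independent: 12 members were called lower in all 4 (25%, against 3% of all genes), namely C1ra, C2, C8a, C8b, C9, Hc, F7, F10, F11, Proz, Plg and Cpb2, and 12 were called in none of the 4 (25%, against 39.2%). The map of fold changes by role shows these columns side by side.

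**Figure D1:**
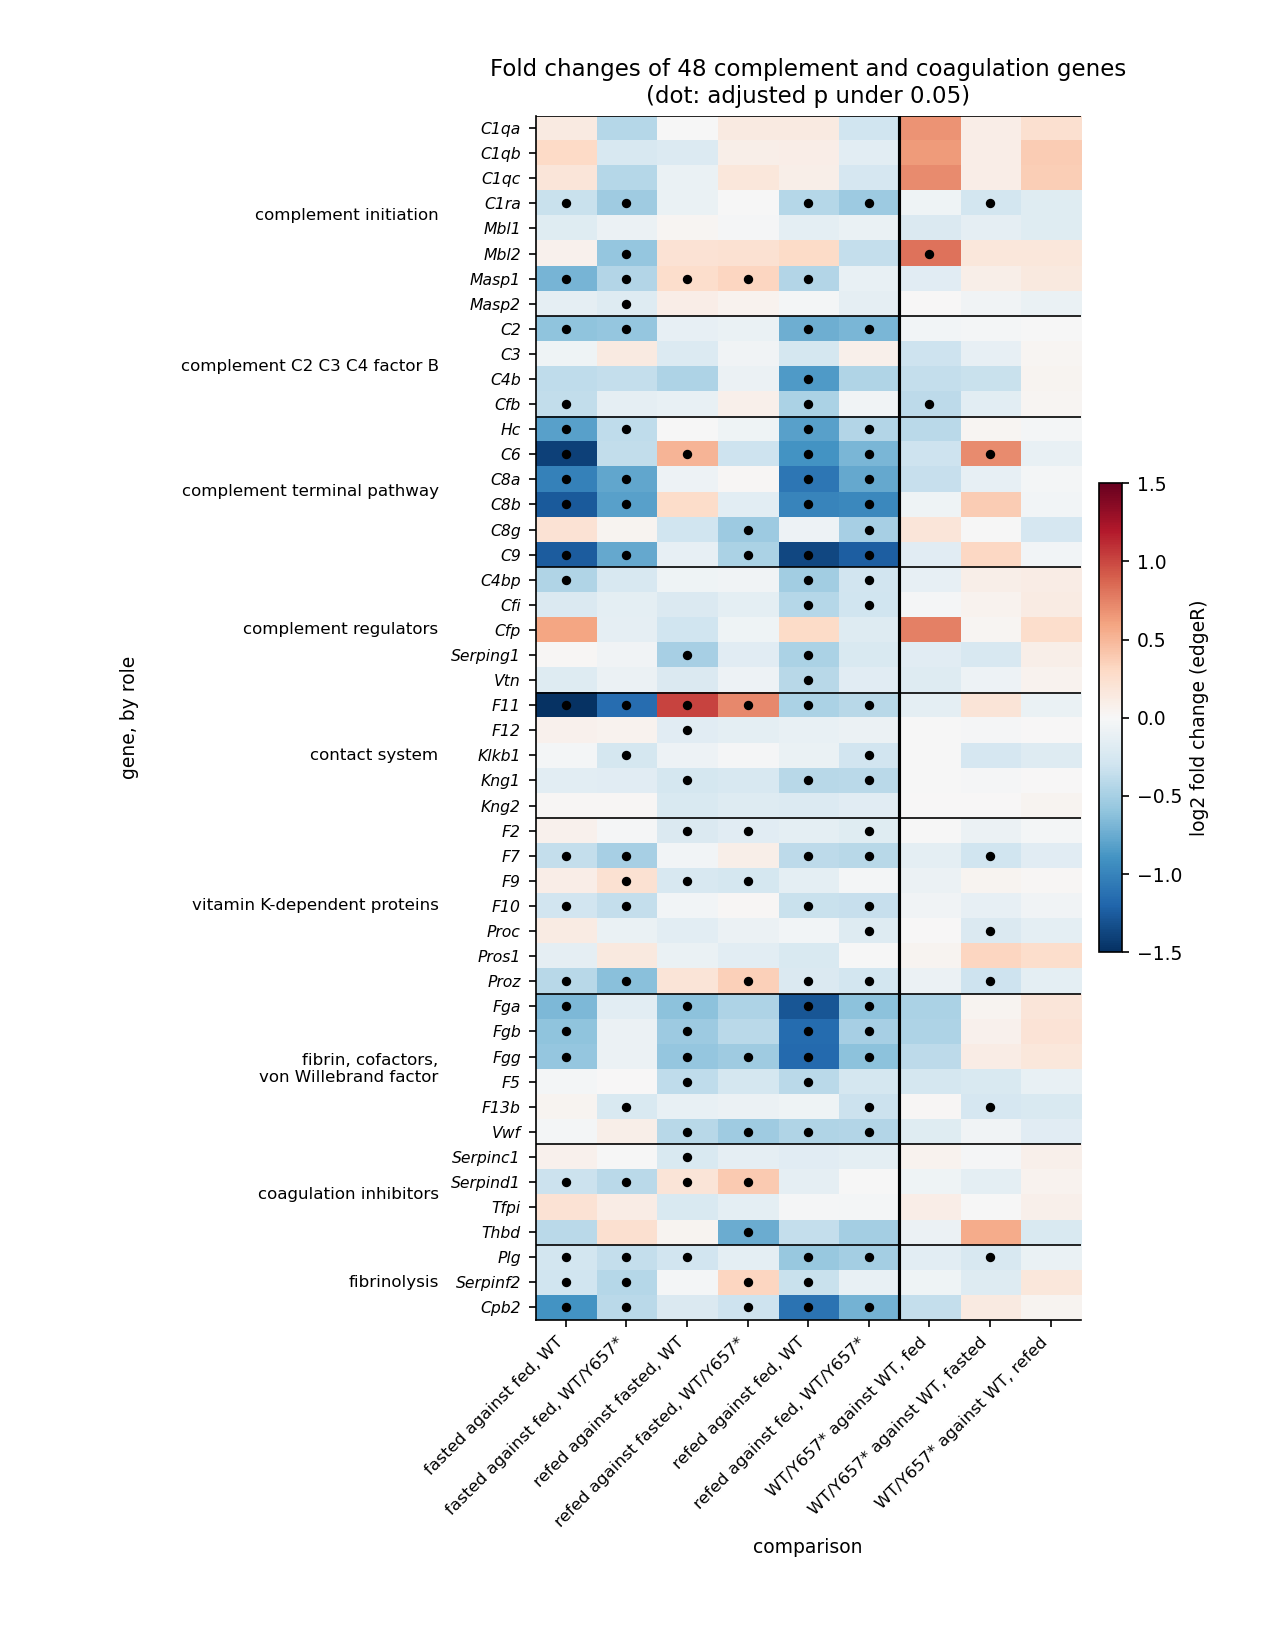
Log2 fold change (colour, edgeR) of each of the 48 members, ordered by role, in 6 feeding comparisons (left of the line) and 3 genotype comparisons (right), with n = 6 mice a group. A dot marks an adjusted p under 0.05, and dots in the columns against fed mice are lower values in every case but F9.

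Genotype differences were few. In fed mice 2 of 48 members were called between WT/Y657* and WT (4.17%, against 2.37% of all genes), Mbl2 higher and Cfb lower. In fasted mice 7 were called (14.6%, against 13.1% of all genes), C6 higher and C1ra, F7, Plg, Proc, Proz and F13b lower. In refed mice 0 of 48 were called by edgeR's quasi-likelihood test (0.0287% of all genes were), while 4 members had an unadjusted p under 0.05 (9.53% of all genes did), where DESeq2 and edgeR's likelihood ratio test also called 0. The genotype difference of the fasting response was called for 1 of 48 members, C6 (2.08%, against 4.35% of all genes). That of the refeeding response was called for 0 of 48 (2.06% of all genes), with 5 members at an unadjusted p under 0.05 (15.5% of all genes) and 1 call, C6, by DESeq2 and by the likelihood ratio test. A fit with the runs of mouse numbers as a term also gave 1 call there. Member medians of the 3 genotype comparisons were -0.076, -0.018 and 0.017 on the log2 scale, where those of all genes were 0.0079, 0.0021 and 0.0060.

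The 2 fed calls and several of the fasted ones rested on few mice. In fed mice the count of calls was 1 without ALC_WT_847, ALC_WT_848 or ALC_WT_849, 0 without ALC_MT_866, ALC_MT_868 or ALC_MT_869, and 5 without ALC_MT_858. It was 0 in a fit to the fed groups alone, with the number runs as a term, without the 5 mice high in acute-phase genes, and without the last run. In fasted mice it was 2 without ONF_MT_827, 3 without ONF_MT_806 or ONF_WT_918, and 4 without ONF_WT_919, ONF_WT_920 or ONF_MT_923, while it was 0 in a fit to the fasted groups alone and 4 with library size as the only scaling or with no filter.

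Among the genes that start complement activation, Mbl2, which encodes a mannose-binding lectin, was at a median of 229 CPM in fed WT mice (206 to 247). In fed WT/Y657* mice it ran from 228 through a median of 379 to 646 CPM. The high values were ALC_MT_866 at 646, ALC_MT_869 at 519 and ALC_MT_868 at 504.8 CPM, all 3 of the last run, whereas ALC_MT_857, ALC_MT_858 and ALC_MT_859 at 228, 241 and 254 CPM lay among or just above the WT mice. The log2 fold change by genotype was 0.81 ± 0.18 (adjusted p = 0.015). Within the mixed run it was 0.13, and without the 3 high mice it was 0.085. With those 3 mice left out, the fall of Mbl2 in fasted against fed WT/Y657* mice (-0.58 ± 0.18, adjusted p = 0.0121) became 0.14 and was not called, and without ALC_MT_866 alone its adjusted p was 0.0688.

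C1qa, C1qb and C1qc encode the chains of C1q, the recognition unit of the classical pathway, and were called in no comparison. C1qa was at a median of 32.3 CPM in fed WT mice (27.3 to 43.5) and 52.6 CPM in fed WT/Y657* mice (23.6 to 84.8). ALC_MT_868, ALC_MT_866, ALC_MT_869 and ALC_MT_859 lay above every fed WT mouse, and ALC_MT_857 and ALC_MT_858 below every one. The fold changes by genotype in fed mice were 0.67 ± 0.28, 0.64 ± 0.28 and 0.71 ± 0.27 for the 3 chains (adjusted p = 0.189, 0.215 and 0.156), and C1qa differed by 0.051 within the mixed run. The 3 values were 0.11, 0.10 and 0.10 in fasted mice and 0.24, 0.38 and 0.37 in refed mice. Without the 5 libraries high in acute-phase transcripts they were 0.23, 0.16 and 0.17 in fasted and 0.17, 0.38 and 0.33 in refed mice. Fasting gave 0.14, 0.30 and 0.18 in WT mice and -0.43, -0.24 and -0.43 in WT/Y657* mice. Refed against fasted mice differed by -0.01, -0.20 and -0.09 in WT and by 0.13, 0.08 and 0.17 in WT/Y657*, the latter -0.12, -0.16 and -0.044 without the 5 libraries high in acute-phase transcripts. Against fed mice the refed values were 0.13, 0.10 and 0.08 in WT and -0.30, -0.15 and -0.26 in WT/Y657*, and the genotype differences of the responses were -0.57, -0.54 and -0.61 for fasting and 0.14, 0.29 and 0.27 for refeeding (-0.062, 0.23 and 0.16 without those libraries). With them left out, refed against fed mice differed by 0.075, 0.039 and 0.052 in WT and by -0.55, -0.40 and -0.48 in WT/Y657*, none called. Refed against fasted WT mice then differed by -0.059, -0.38 and -0.20.

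C1q is a product of Kupffer cells, the macrophages of liver, and 9 of the 10 genes of a Kupffer cell and macrophage list were in the table, none of them at 0 in all libraries. Their summed level ran from 280 to 405 CPM in fed WT mice. In fed WT/Y657* mice it was 254 CPM in ALC_MT_857, 270 in ALC_MT_858, 538 in ALC_MT_869, 566 in ALC_MT_859, 744 in ALC_MT_866 and 838 in ALC_MT_868. Fasted mice spanned 314 to 590 CPM in WT and 322 to 550 in WT/Y657*, and refed mice 291 to 637 and 299 to 782. The most abundant marker was Cd5l, a secreted macrophage protein, at a median of 95.9 CPM, and by genotype in fed mice it differed by 0.96 ± 0.29 (adjusted p = 0.0652), with Timd4 at 0.94 ± 0.31 and Clec4f at 0.67 ± 0.24. Of the 9 markers 8 were higher in fed WT/Y657* than WT mice by sign alone, and the adjusted p of Cd5l was the smallest. The part of these cells in the C1q and Mbl2 values was not tested, and more cells cannot be told apart from more RNA per cell in whole liver. The plot of fed mice by number shows that Mbl2, C1qa and the marker sum were high in the same 3 mice, with ALC_MT_859 high in C1qa and the sum only.

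**Figure D2:**
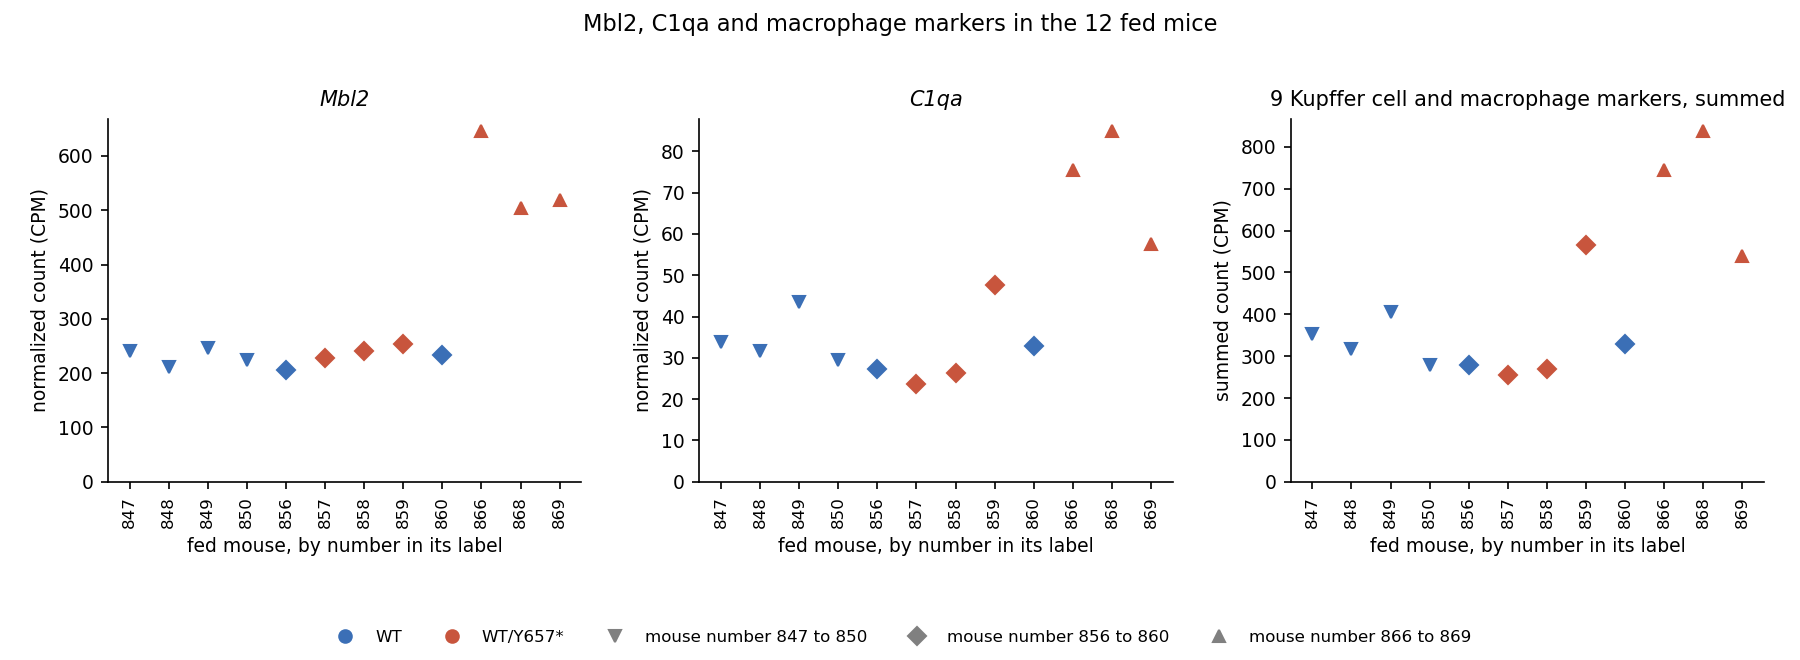
Normalized count of Mbl2 and of C1qa and the summed count of 9 Kupffer cell and macrophage markers (CPM, axes from 0) in each of the 12 fed mice, ordered by the number in the label. Points are single mice, coloured by genotype and shaped by run of numbers, and the 3 mice of the highest numbers are high in all 3 panels (Mbl2 504.8 to 646 CPM).

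The other starters behaved differently. C1ra, a protease of the C1 complex, was at a median of 425 CPM in fed WT mice (386 to 443) and 340 CPM after the fast (276 to 384), and in WT/Y657* mice at 409 CPM (341 to 475) and 280 CPM (244 to 306). In each genotype every fasted mouse lay below every fed mouse. C1ra fell with fasting by 0.33 ± 0.08 in WT (adjusted p = 0.00235) and 0.54 ± 0.08 in WT/Y657* (4.45e-06), and in fasted mice it was lower in WT/Y657* (-0.27 ± 0.08, adjusted p = 0.0269), with -0.28 and -0.25 within the lower and upper run. Masp1 fell with fasting in both genotypes (-0.70 ± 0.09 and -0.44 ± 0.09) and rose again with refeeding, in WT not without RF6_WT_815, ONF_WT_824, RF6_WT_896, RF6_WT_901 or ONF_WT_920. Masp2, another lectin-pathway protease, was called lower in fasted WT/Y657* mice (-0.19 ± 0.07, adjusted p = 0.0454, lost without any of 8 of the 36 mice), and 54.9% of its exon length lies over exons of Tardbp on the other strand. Mbl1, the second mannose-binding lectin, was called nowhere.

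C3 was at a median of 8844 CPM in fed WT mice (8087 to 13590) and 7479 CPM in fed WT/Y657* mice (6736 to 10120). After the fast it was at 8292 CPM in WT (7806 to 14840) and 9023 CPM in WT/Y657* (7464 to 9154), and after refeeding at 8246 CPM (7388 to 8791) and 7986 CPM (7546 to 10780). ONF_WT_807, ALC_WT_847, ALC_WT_849 and RF6_MT_898, all high in acute-phase genes, held the top 4 values of the 36 mice, and the groups overlapped. C3 was called in no comparison. By genotype it differed by -0.32 ± 0.13 in fed (adjusted p = 0.199), -0.13 in fasted and 0.03 in refed mice. Without the 5 libraries high in acute-phase transcripts the values were -0.11, 0.047 and -0.033. The feeding comparisons gave -0.06 and 0.13 for fasted against fed, -0.21 and -0.05 for refed against fasted and -0.27 and 0.08 for refed against fed in WT and WT/Y657*, with genotype differences of 0.19 for fasting and 0.16 for refeeding (0.16 and -0.079 without those libraries). In the same order the feeding values without them were -0.031 and 0.13, -0.053 and -0.13, and -0.084 and -0.0040.

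C2, which supplies a protease of the classical and lectin routes, was at a median of 176 CPM in fed WT mice (151 to 193) and 117 CPM after the fast (87.9 to 135), without overlap. The WT/Y657* mice ran from 135 to 199 CPM fed (median 172) and from 100 to 134 CPM fasted (median 107), again without overlap. C2 fell in both (-0.60 ± 0.11 and -0.58 ± 0.11) and remained low on refeeding. Cfb, factor B of the alternative route, was at a median of 1725 CPM in fed WT mice (1589 to 2489) and 1448 CPM in fed WT/Y657* mice (1344 to 1603). The highest WT mice were ALC_WT_847 and ALC_WT_849, and the groups overlapped at their edges. Its genotype difference was called (-0.39 ± 0.11, adjusted p = 0.0427) but was -0.12 within the mixed run and -0.20 (adjusted p = 0.194) without the 5 mice high in acute-phase genes. The annotation places a readthrough transcript on the same strand over 79.5% of the Cfb exons and 42.8% of the C2 exons, and the deposited table gives both genes 1 locus, so reads of these neighbours may be shared. C4b, which encodes C4, was called lower only in refed against fed WT mice (-0.84 ± 0.19, adjusted p = 0.000819), and the value in WT/Y657* mice was -0.45 ± 0.19 (adjusted p = 0.069).

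Most genes of the terminal pathway fell with fasting. Hc encodes C5, whose cleavage starts pore assembly, and C6, C8a, C8b, C8g and C9 encode pore components. In fasted against fed WT mice 5 of the 6 fell, all but C8g, with a median log2 fold change of -1.13, and in WT/Y657* mice 4 of 6 fell, all but C6 and C8g, with a median of -0.58, and of all genes 17.5% and 17.7% were lower. C8g, the small chain of C8, differed by 0.22 ± 0.18 (adjusted p = 0.381) and 0.04 ± 0.18 (0.887) with fasting. Its WT value was 0.11 without the 5 libraries high in acute-phase transcripts.

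C9 forms the wall of the pore. It was at a median of 930 CPM in fed WT mice (780 to 1079), 358 CPM in fasted (264 to 649) and 372 CPM in refed WT mice (271 to 441). The WT/Y657* medians were 791 CPM (595 to 1047), 473 CPM (416 to 644) and 352 CPM (264 to 482). Every fasted WT mouse lay below every fed one, ONF_WT_807 nearest to them, whereas in WT/Y657* mice ONF_MT_806 reached above the lowest fed mouse, ALC_MT_866. In WT/Y657* liver C9 fell again from the fasted to the refed state (-0.47 ± 0.16, adjusted p = 0.0258), a call lost without ONF_MT_806, RF6_MT_810 or RF6_MT_814 (highest adjusted p = 0.093). In WT liver that step was -0.13 ± 0.16, and the difference between genotypes was not called (-0.34 ± 0.23, adjusted p = 0.513). Fasted WT/Y657* mice differed from fasted WT mice by 0.31 ± 0.16 (adjusted p = 0.222), and by 0.51 (adjusted p = 0.0123) once ONF_WT_807 and the other 4 mice high in acute-phase genes were left out.

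C8b and C8a encode the beta and alpha chains of C8 and are neighbours on chromosome 4. C8b was at a median of 573 CPM in fed WT mice (505.9 to 684) and 268 CPM in fasted ones (129 to 314). In WT/Y657* mice it was at 528 CPM fed (428 to 722) and 305 CPM fasted (280 to 371). No fasted mouse reached the fed range in either genotype, and ONF_WT_825 at 129 CPM and ONF_WT_824 at 165 CPM were far below the rest. C8a went from 1298 CPM (1200 to 1657) to 684 CPM (410 to 1125) in WT and from 1055 CPM (977 to 1311) to 647 CPM (522 to 700) in WT/Y657*. The same 2 mice were its lowest and ONF_WT_807 its highest among fasted WT mice. On refeeding the changes were 0.27 ± 0.15 (C8b) and -0.08 ± 0.15 (C8a) in WT and -0.15 ± 0.15 and 0.02 ± 0.15 in WT/Y657*, none called, and for C8b in WT 0.73 within the lower run and -0.077 within the upper run. By genotype C8b differed by -0.07, 0.39 (adjusted p = 0.0947) and -0.04 in the fed, fasted and refed states and C8a by -0.35, -0.12 and -0.03, again none called. C8g differed by genotype by 0.18, -0.00053 and -0.25 in the same states. Without the 5 libraries high in acute-phase transcripts these genotype values were -0.21, 0.074 and -0.041 for C8a. They were 0.017, 0.47 and -0.027 for C8b and 0.043, -0.024 and -0.10 for C8g, none called. The refeeding changes of C8a were then 0.057 in WT and -0.058 in WT/Y657*.

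Refed against fed mice differed by -1.08 (C8a), -0.99 (C8b) and -0.08 (C8g) in WT and by -0.76, -0.97 and -0.50 in WT/Y657*, all called but C8g in WT. The call of C8g in WT/Y657* (adjusted p = 0.0362) was lost without any of 6 of the 36 mice. It was also lost without the 5 libraries high in acute-phase transcripts (-0.39, adjusted p = 0.067), where the WT value was -0.24. The genotype differences of the fasting response were 0.22, 0.45 and -0.18, and those of the refeeding response 0.10, -0.42 and -0.25 for C8a, C8b and C8g, none called. Without those libraries they were 0.28, 0.46 and -0.067 for fasting and -0.11, -0.50 and -0.077 for refeeding, again none called.

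C6 showed a called genotype difference in its fasting response. In WT mice it was at a median of 381 CPM fed (309 to 461), 151 CPM fasted (71.9 to 207) and 194 CPM refed (177 to 240). The WT/Y657* medians were 292 CPM (212 to 455), 226 CPM (207 to 285) and 196 CPM (145 to 224). All fasted WT mice lay below all fed WT mice, while fed and fasted WT/Y657* mice overlapped, and between fasted genotypes the ranges met at 207 CPM, the value of ONF_WT_807 and of ONF_MT_923. C6 fell with fasting by 1.40 ± 0.18 in WT (adjusted p = 2.45e-07) and differed by -0.37 ± 0.18 in WT/Y657* (0.108). The difference of these responses was 1.02 ± 0.25 (adjusted p = 0.0167). It was called without each of the 36 mice (highest adjusted p = 0.0371), and not when the last run was left out (0.74, adjusted p = 0.13). Leaving out ONF_WT_807 raised the count of members called for this difference from 1 to 4, and for the refeeding difference from 0 to 1.

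In the fasted state itself C6 was higher in WT/Y657* mice by 0.71 ± 0.18 (adjusted p = 0.0078). The value was 1.14 within the lower run, which holds ONF_WT_825 and ONF_WT_824, and 0.42 within the upper run. It remained called without each mouse in turn, and its adjusted p was 0.0515 in a fit to the fasted groups alone. Refeeding raised C6 in WT (0.50 ± 0.18, adjusted p = 0.0306, lost without ONF_WT_824, ONF_WT_825, RF6_WT_896, RF6_WT_901 or ONF_WT_919), where WT/Y657* mice differed by -0.31 ± 0.18 (adjusted p = 0.191). That difference of responses, -0.82 ± 0.25, had an adjusted p of 0.0847, and of 0.035 by DESeq2. The plot of terminal pathway genes shows the C6 values of every mouse.

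**Figure D3:**
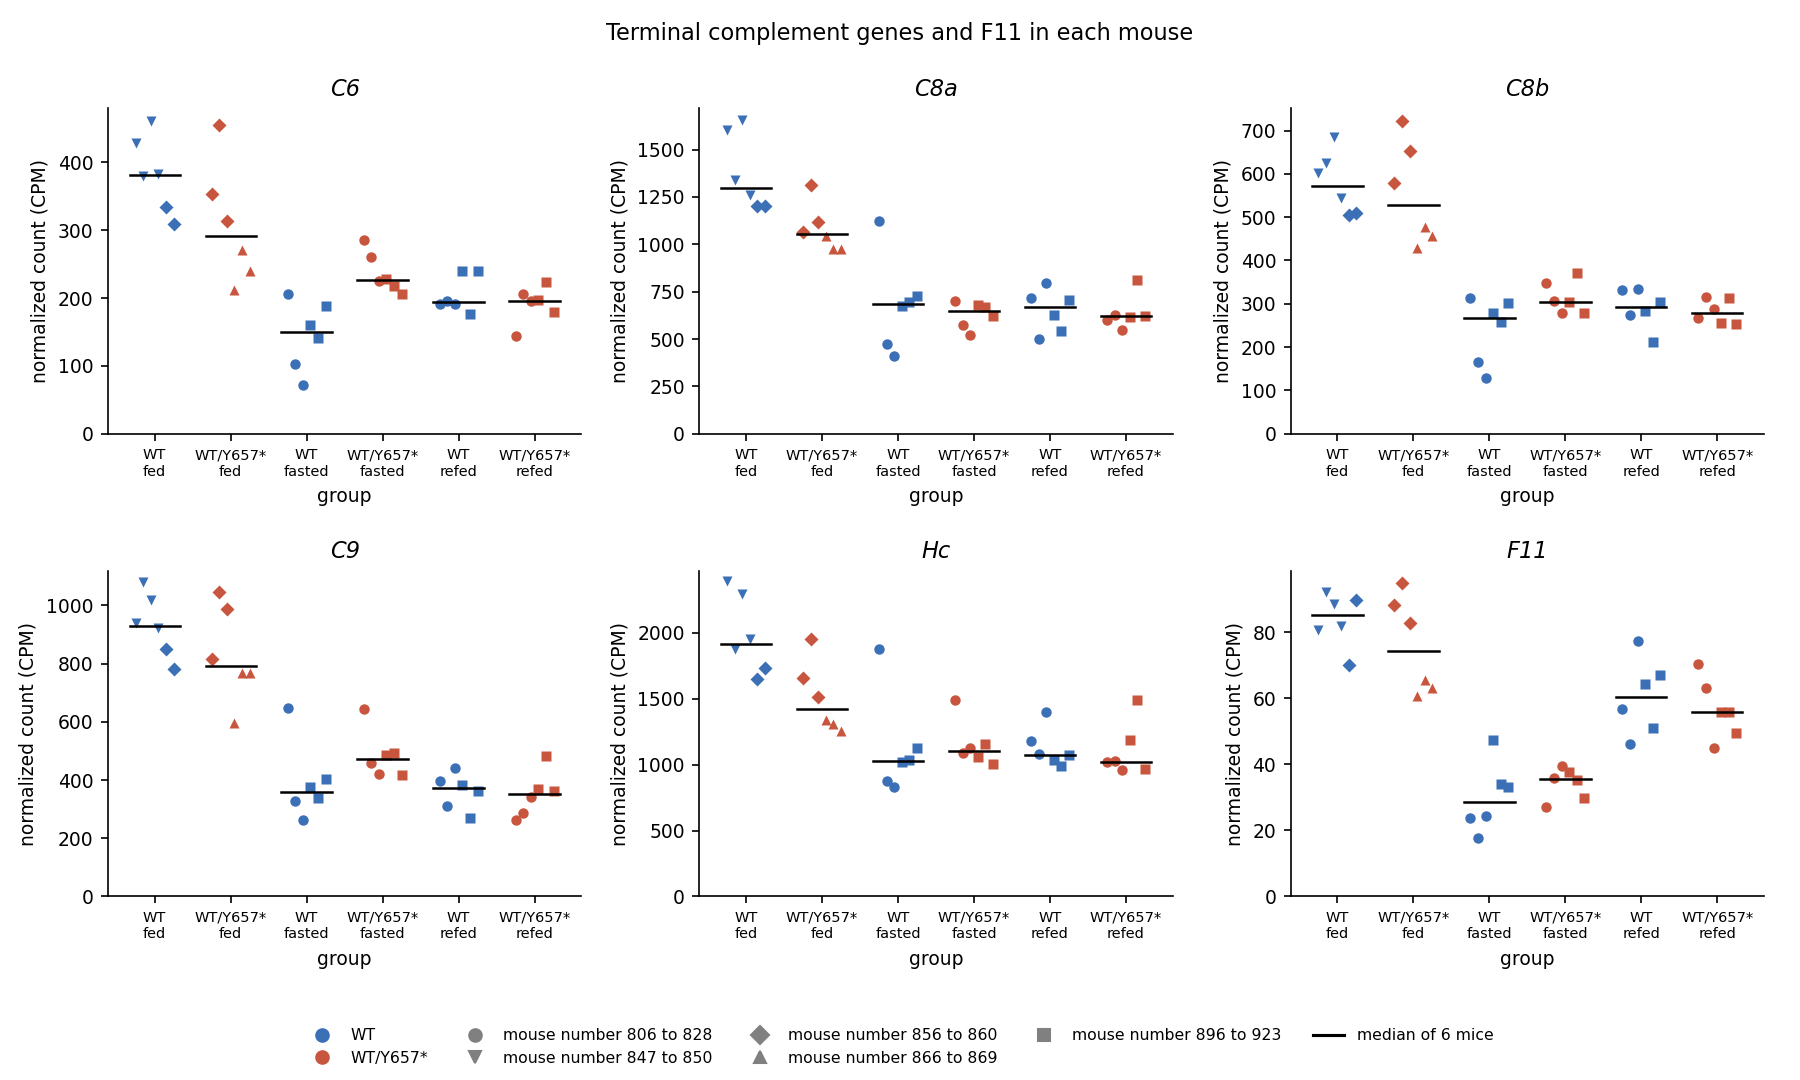
Normalized count (CPM, axes from 0) of C6, C8a, C8b, C9, Hc and F11 in each of the 36 mice by group, with the median of 6 mice as a line, genotype as colour and run of mouse numbers as shape. Group medians are highest in fed mice in each panel, with overlap of single mice, and the fasted WT mice of C6 (71.9 to 207 CPM) lie at or below the fasted WT/Y657* mice (207 to 285 CPM).

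The promoters of C8a and C8b, which both fell with fasting in both genotypes, are shown with that of C6, whose fasting response differed between genotypes, from RefSeq on GRCm38.p6, each from 250 bases before to 50 bases after the gene's start and read 5' to 3' on the gene's strand. C8a lies at chr4:104876349-104876648 (minus strand), C8b at chr4:104766067-104766366 (plus strand) and C6 at chr15:4726960-4727259 (plus strand). Capitals mark matches, on either strand, to TTCNNNGAA (a STAT motif), CTGGGAA (an element known from interleukin 6 responses), GTTAAT (an HNF1 half-site), TATAAA, TTGCGCAA and TTGCGAAA (C/EBP), and CAAAGTCCA and CAAAGTTCA (HNF4). No 2 matches in the printed sequences overlap.
C8a: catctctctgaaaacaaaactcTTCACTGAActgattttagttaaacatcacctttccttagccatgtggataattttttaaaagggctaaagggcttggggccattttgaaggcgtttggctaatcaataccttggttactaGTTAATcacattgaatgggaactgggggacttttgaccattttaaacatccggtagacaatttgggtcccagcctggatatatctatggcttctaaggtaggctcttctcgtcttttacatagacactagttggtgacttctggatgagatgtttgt
C8b: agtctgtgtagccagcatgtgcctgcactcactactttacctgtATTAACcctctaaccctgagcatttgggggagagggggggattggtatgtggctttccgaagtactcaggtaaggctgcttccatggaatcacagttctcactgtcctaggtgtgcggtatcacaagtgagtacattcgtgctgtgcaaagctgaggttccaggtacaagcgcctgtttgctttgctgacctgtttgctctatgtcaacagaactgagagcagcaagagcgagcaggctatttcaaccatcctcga
C6: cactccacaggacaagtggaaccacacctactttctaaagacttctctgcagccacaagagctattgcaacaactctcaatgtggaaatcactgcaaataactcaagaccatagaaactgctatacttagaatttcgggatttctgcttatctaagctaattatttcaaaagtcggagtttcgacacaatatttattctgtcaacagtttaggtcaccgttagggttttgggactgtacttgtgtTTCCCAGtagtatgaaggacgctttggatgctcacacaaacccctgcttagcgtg

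Promoters were found for 36 of the 48 members. GTTAAT or its complement was in 12 of them (33.3%), against 7.1% of all 32851 promoters, among them C8a, C8b, Hc, Fga and Fgb. CTGGGAA was in 9 (25%, against 11.1%) and TTCNNNGAA in 8 (22.2%, against 8.3%). TATAAA was in 5 (13.9%, against 13.6%). TTGCGAAA was in 1, C3 (2.78%, against 0.174%), CAAAGTTCA in 1, Serpind1 (2.78%, against 0.39%), and TTGCGCAA and CAAAGTCCA in 0 (all promoters 0.183% and 0.475%). These are counts of letters in short windows and no test was made on them.

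The ratio of the C8 chains within a library does not depend on scaling between libraries. In fasted mice the mean log2 ratio of C8b to C8a was -0.999 ± 0.135 (SD, n = 6) in WT/Y657* and -1.503 ± 0.223 in WT, a difference of 0.50 with all 6 WT/Y657* mice above all 6 WT mice. Its exact permutation p (two-sided, all arrangements) was 0.00216, the smallest that 6 against 6 mice allow, and 0.0325 after adjustment over 30 ratio comparisons. The difference was 0.74 within the lower and 0.27 within the upper run. In fed mice it was 0.26 (exact p = 0.0238, adjusted 0.119) and in refed mice -0.0085. C8g to C8a rose with fasting by 0.83 in WT/Y657* mice (adjusted exact p = 0.0325, 6 of 6 fasted mice above all fed mice), since C8a fell and C8g did not. In WT mice that ratio differed by 1.35 (adjusted exact p = 0.0866), with a wide spread: C8g in fed WT mice ran from 143 to 330 CPM. Left out in turn, single mice moved the number of called ratios between 0 and 3.

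**Figure D4:**
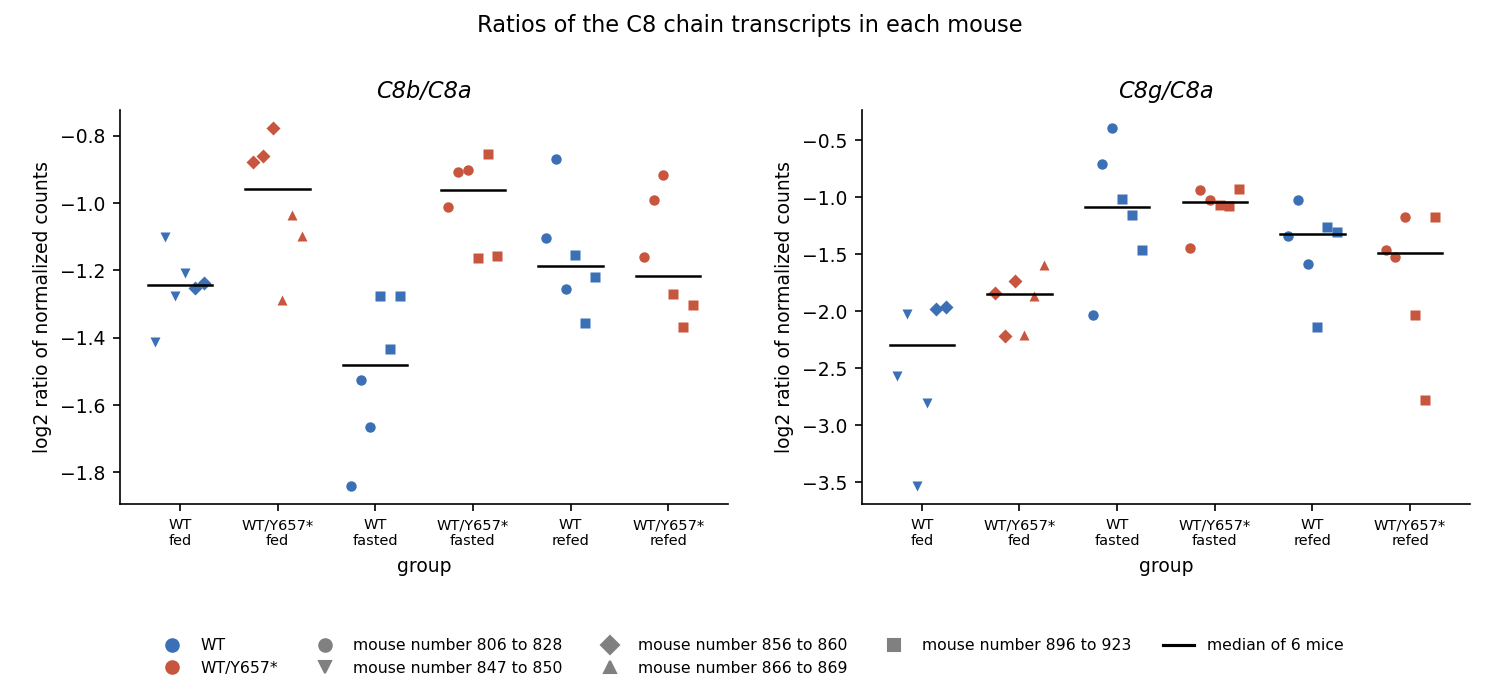
Log2 ratio of normalized counts of C8b to C8a (left) and of C8g to C8a (right) in each of the 36 mice by group, with the median of 6 mice as a line, genotype as colour and run of mouse numbers as shape. In the fasted state every WT/Y657* mouse (-1.16 to -0.85) is above every WT mouse (-1.84 to -1.28) for C8b to C8a.

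C8g fell on refeeding in WT/Y657* mice (-0.54 ± 0.18, adjusted p = 0.0193), a call lost without RF6_MT_897 or RF6_MT_898 (highest adjusted p = 0.0588), and differed by -0.30 ± 0.18 in WT. Hc followed C9 and C8: in WT its median went from 1917 CPM fed (1647 to 2394) to 1029 CPM fasted (833 to 1879) and 1076 CPM refed (986 to 1398). ONF_WT_807 alone among fasted WT mice reached the fed range. The fall was 0.81 ± 0.15 in WT and 0.38 ± 0.15 in WT/Y657* (adjusted p = 0.0449, lost without any of 9 of the 36 mice), and the genotypes did not differ by the test of the difference (0.43 ± 0.21, adjusted p = 0.25).

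Of the complement regulators, C4bp, which binds C4b, was called lower with fasting in WT mice (-0.45 ± 0.11, adjusted p = 0.00113), where WT/Y657* mice differed by -0.23 ± 0.11 (adjusted p = 0.0893) and the difference between genotypes was 0.22 ± 0.15 (adjusted p = 0.451). In refed against fed WT mice 4 of 5 regulators were lower, C4bp, the C3b-cleaving protease Cfi, Serping1 and Vtn, and in WT/Y657* mice 2, C4bp and Cfi, where 14.3% and 13.1% of all genes were lower. Cfp, which encodes properdin, was not called anywhere. It differed by 0.75 ± 0.26 between fed genotypes (adjusted p = 0.117), and its 4 highest fed mice, at 25.4 to 37.0 CPM, were the same ALC_MT_859, ALC_MT_869, ALC_MT_866 and ALC_MT_868 as for C1qa.

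In the contact system, which starts clotting on negatively charged surfaces, F11 stood apart. Its median in WT mice was 85.2 CPM fed (70.0 to 92.2), 28.6 CPM fasted (17.8 to 47.4) and 60.5 CPM refed (46.3 to 77.5). The WT/Y657* medians were 74.2 CPM (60.6 to 94.8), 35.5 CPM (27.2 to 39.5) and 55.9 CPM (44.9 to 70.3). In both genotypes all fasted mice lay below all fed mice, and the refed medians lay between, with refed mice such as RF6_WT_828 reaching into the fed range. In WT/Y657* all refed mice were above all fasted mice, and in WT the ranges overlapped only by ONF_WT_918 at 47.4 and RF6_WT_816 at 46.3 CPM. The rise with refeeding was 1.40 and 0.67 within the lower and upper run in WT, and 0.77 and 0.64 in WT/Y657*. Refed mice were still lower than fed mice (-0.47 ± 0.16, adjusted p = 0.0258, and -0.42 ± 0.16, adjusted p = 0.0491), and the latter call was lost without any of 24 of the 36 mice. Of the 48 members F11 had the largest fall with fasting and the largest rise with refeeding in both genotypes.

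The rest of that system changed less than F11 with fasting. Kng1, which encodes high-molecular-weight kininogen, was lower in refed than in fed mice of both genotypes (-0.41 ± 0.10 and -0.40 ± 0.10). It was also called lower in refed than in fasted WT mice, while Kng2, its neighbour on chromosome 16, was called nowhere. F12, coagulation factor XII, was called once, in refed against fasted WT mice (-0.17 ± 0.07, adjusted p = 0.0403, lost without any of 9 of the 36 mice). Klkb1, plasma prekallikrein, lies beside F11 on chromosome 8 and was called lower with fasting in WT/Y657* mice only (-0.27 ± 0.09, adjusted p = 0.0259, lost without ONF_MT_806, ONF_MT_827 or ALC_MT_858), where WT mice differed by -0.03 ± 0.09 and the difference between genotypes was -0.24 ± 0.13 (adjusted p = 0.319). Klkb1 was also called lower in refed against fed WT/Y657* mice. Exons of Cyp4v3 and of a further entry named Klkb1, on the same strand, cover 93.7% of its exon length.

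Among the vitamin K-dependent proteins, F7, F10 and Proz, neighbours on chromosome 8, fell with fasting in both genotypes. Proz was at a median of 320 CPM in fed WT mice (297 to 334) and 242 CPM in fasted ones (212 to 271), and in WT/Y657* mice at 301 CPM (285 to 313) and 199 CPM (142 to 224). No fasted mouse overlapped the fed mice, and ONF_MT_806 was the lowest of all. The falls of Proz were 0.41 ± 0.08 and 0.63 ± 0.08, those of F7, the first protease of the tissue factor route, 0.35 ± 0.09 and 0.50 ± 0.09, and those of F10, whose active form cleaves prothrombin, 0.29 ± 0.07 and 0.36 ± 0.07. F2, prothrombin, did not pass the test with fasting (0.07 ± 0.06 and -0.01 ± 0.06) and was lower after refeeding than in fasted mice (-0.22 ± 0.06 in WT, adjusted p = 0.00774, and -0.17 ± 0.06 in WT/Y657*, adjusted p = 0.043). The latter call was lost without any of 16 of the 36 mice. By genotype F2 differed by -0.0029, -0.08 and -0.03 in fed, fasted and refed mice. Refed against fed mice differed by -0.15 in WT and -0.18 in WT/Y657* (adjusted p = 0.0765 and 0.0341, the latter lost without any of 6 of the 36 mice), and the genotype differences of the responses were -0.08 for fasting and 0.05 for refeeding. F9 fell with refeeding in both genotypes (-0.24 ± 0.06 and -0.27 ± 0.06).

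Of the 7 genotype calls in fasted mice 3 were in this group of 7 genes, all lower, where 6.63% of all genes were called lower. Over all members the share of calls between fasted genotypes was near that of all genes, as given above. Proz was lower in WT/Y657* by 0.31 ± 0.08 on the log2 scale (adjusted p = 0.00792), F7 by 0.30 ± 0.09 (0.0186) and Proc, which encodes protein C, by 0.22 ± 0.07 (0.036). F7 was at a median of 75.5 CPM in fasted WT mice (63.2 to 82.2) and 57.0 CPM in fasted WT/Y657* mice (49.4 to 81.4). ONF_MT_922 at 81.4 CPM lay among the WT mice, and the groups overlapped for Proz and Proc too. Within the lower and upper run the differences were -0.37 and -0.26 for Proz, -0.27 and -0.35 for F7, and -0.26 and -0.19 for Proc. Proz was called without each mouse in turn, F7 not without ONF_MT_806, ONF_MT_827, ONF_WT_918 or ONF_MT_923 (highest adjusted p = 0.0664), and Proc not without ONF_MT_806, ONF_MT_827, ONF_WT_918, ONF_WT_919 or ONF_WT_920 (0.118). The other calls were Plg, plasminogen (-0.24 ± 0.08, adjusted p = 0.0488; -0.22 and -0.26 within the runs), and F13b, the carrier subunit of the fibrin-linking factor XIII (-0.25 ± 0.09, adjusted p of 0.05 after rounding; -0.32 and -0.21), which were lost without any of 21 and 27 of the 36 mice. C1ra was lost without ONF_MT_806, ONF_WT_807, ONF_MT_827 or ONF_WT_920 (highest adjusted p = 0.0743).

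Fibrinogen is assembled from the products of Fga, Fgb and Fgg, which lie together on chromosome 3. Fga was at a median of 5858 CPM in fed WT mice (4791 to 11020), 4191 CPM in fasted (3903 to 6538) and 2780 CPM in refed ones (2691 to 3821). The WT/Y657* medians were 5009 CPM (4623 to 6377), 4324 CPM (3497 to 6150) and 2984 CPM (2645 to 5269). ALC_WT_847 at 11020 and ALC_WT_849 at 10450 CPM were far above the other fed mice, and ONF_WT_807, RF6_WT_828 and RF6_MT_898 were each the highest of their group and clear of the rest. Fgb went from 5181 CPM (4310 to 9531) to 3906 CPM (3465 to 5543) and 2646 CPM (2474 to 3783) in WT, and from 4330 CPM (4100 to 5663) to 4193 CPM (3303 to 5324) and 2629 CPM (2473 to 5242) in WT/Y657*. The same 5 mice stood out.

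Fga, Fgb and Fgg fell with fasting in WT mice by 0.67 ± 0.19, 0.61 ± 0.19 and 0.58 ± 0.17 on the log2 scale (adjusted p = 0.00551, 0.0114 and 0.0082). In WT/Y657* mice the values were -0.16 ± 0.19, -0.08 ± 0.19 and -0.08 ± 0.17, none called. The difference between genotypes was not called (0.51 ± 0.26, 0.52 ± 0.26 and 0.50 ± 0.24, adjusted p = 0.286, 0.274 and 0.25), and was 0.23, 0.24 and 0.26 without the 5 libraries high in acute-phase transcripts. The 3 calls in WT were lost in a fit to these groups alone (adjusted p = 0.0551 for Fga and 0.0534 for Fgg), and that of Fgb also without ALC_WT_847 (0.0598). From the fasted to the refed state the chains fell in WT (adjusted p = 0.0115, 0.0229 and 0.00862), Fga and Fgb not without ONF_WT_807. WT/Y657* mice differed by -0.46, -0.41 and -0.53 there, of which Fgg was called (adjusted p = 0.0165, lost without ONF_MT_827), and the genotype differences were 0.15, 0.14 and 0.05. Within the lower run the WT/Y657* values were -0.78, -0.69 and -0.84 and within the upper run -0.16, -0.21 and -0.25. With those 5 libraries left out, the fasting values in WT were -0.39, -0.32 and -0.35, Fgb not called (adjusted p = 0.0582), and the refeeding values in WT/Y657* were -0.63, -0.60 and -0.69, all called, with genotype differences of -0.073, -0.050 and -0.14 for refeeding.

 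Refed mice had less than fed mice in both genotypes, by 1.28, 1.16 and 1.17 in WT and 0.62, 0.49 and 0.61 in WT/Y657* on the log2 scale, and the last 3 calls were lost without the mice of the last run. Without those 5 libraries the values were -0.95, -0.87 and -0.90 in WT and -0.80, -0.68 and -0.78 in WT/Y657*, all called. By genotype the chains differed by -0.47, -0.46 and -0.39 in fed mice (adjusted p = 0.163, 0.177 and 0.217), where the same values were 0.037, -0.0096 and 0.017 within the mixed run and -0.059, -0.069 and -0.036 without the 5 libraries. They differed by 0.04, 0.06 and 0.11 in fasted and by 0.19, 0.20 and 0.16 in refed mice, none called. Without the 5 libraries these values were 0.17, 0.17 and 0.23 in fasted and 0.098, 0.12 and 0.085 in refed mice, again none called.

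The ratios of the chains changed little. The log2 ratio of Fga to Fgb differed by -0.0067 between fed genotypes (exact permutation p = 0.768) and by -0.062 and -0.085 with fasting in WT and WT/Y657*. That of Fgg to Fgb differed by 0.057 between fed genotypes (exact permutation p = 0.01515, adjusted 0.114), with 4 WT/Y657* mice above all WT mice. With fasting it differed by 0.0095 in WT and -0.0023 in WT/Y657*. No ratio of fibrinogen or C1q chains was called. The part of the acute-phase response in the fibrinogen values was not tested. Of the 20 acute-phase genes 7 were called lower in fed WT/Y657* against WT mice, led by Saa4 (-1.61 ± 0.25), Saa3 (-4.29 ± 0.85) and Serpina3n (-1.29 ± 0.27), and 8 lower with fasting in WT mice, where 1.15% and 17.5% of all genes were lower. The fed WT group includes ALC_WT_847 and ALC_WT_849, and values of this list from the fit without them are not given. Saa3 was at a median of 13.54 CPM in fed WT (3.426 to 436.9) and 4.775 CPM in fed WT/Y657* mice (3.984 to 8.577). With fasting in WT/Y657* mice 2 of the 20 were called higher and 1 lower, against 15.2% and 17.7% of all genes, and for the genotype difference of fasting 4 were called higher, led by Lbp, Hp and Saa4, against 2.59% of all genes. The summed level ran from 14600 to 49800 CPM in fed WT, 11840 to 15750 in fed WT/Y657*, 10310 to 29530 in fasted WT, 11350 to 17730 in fasted WT/Y657*, 10360 to 26510 in refed WT and 11090 to 31630 CPM in refed WT/Y657* mice, and Hpx was the most abundant gene.

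**Figure D5:**
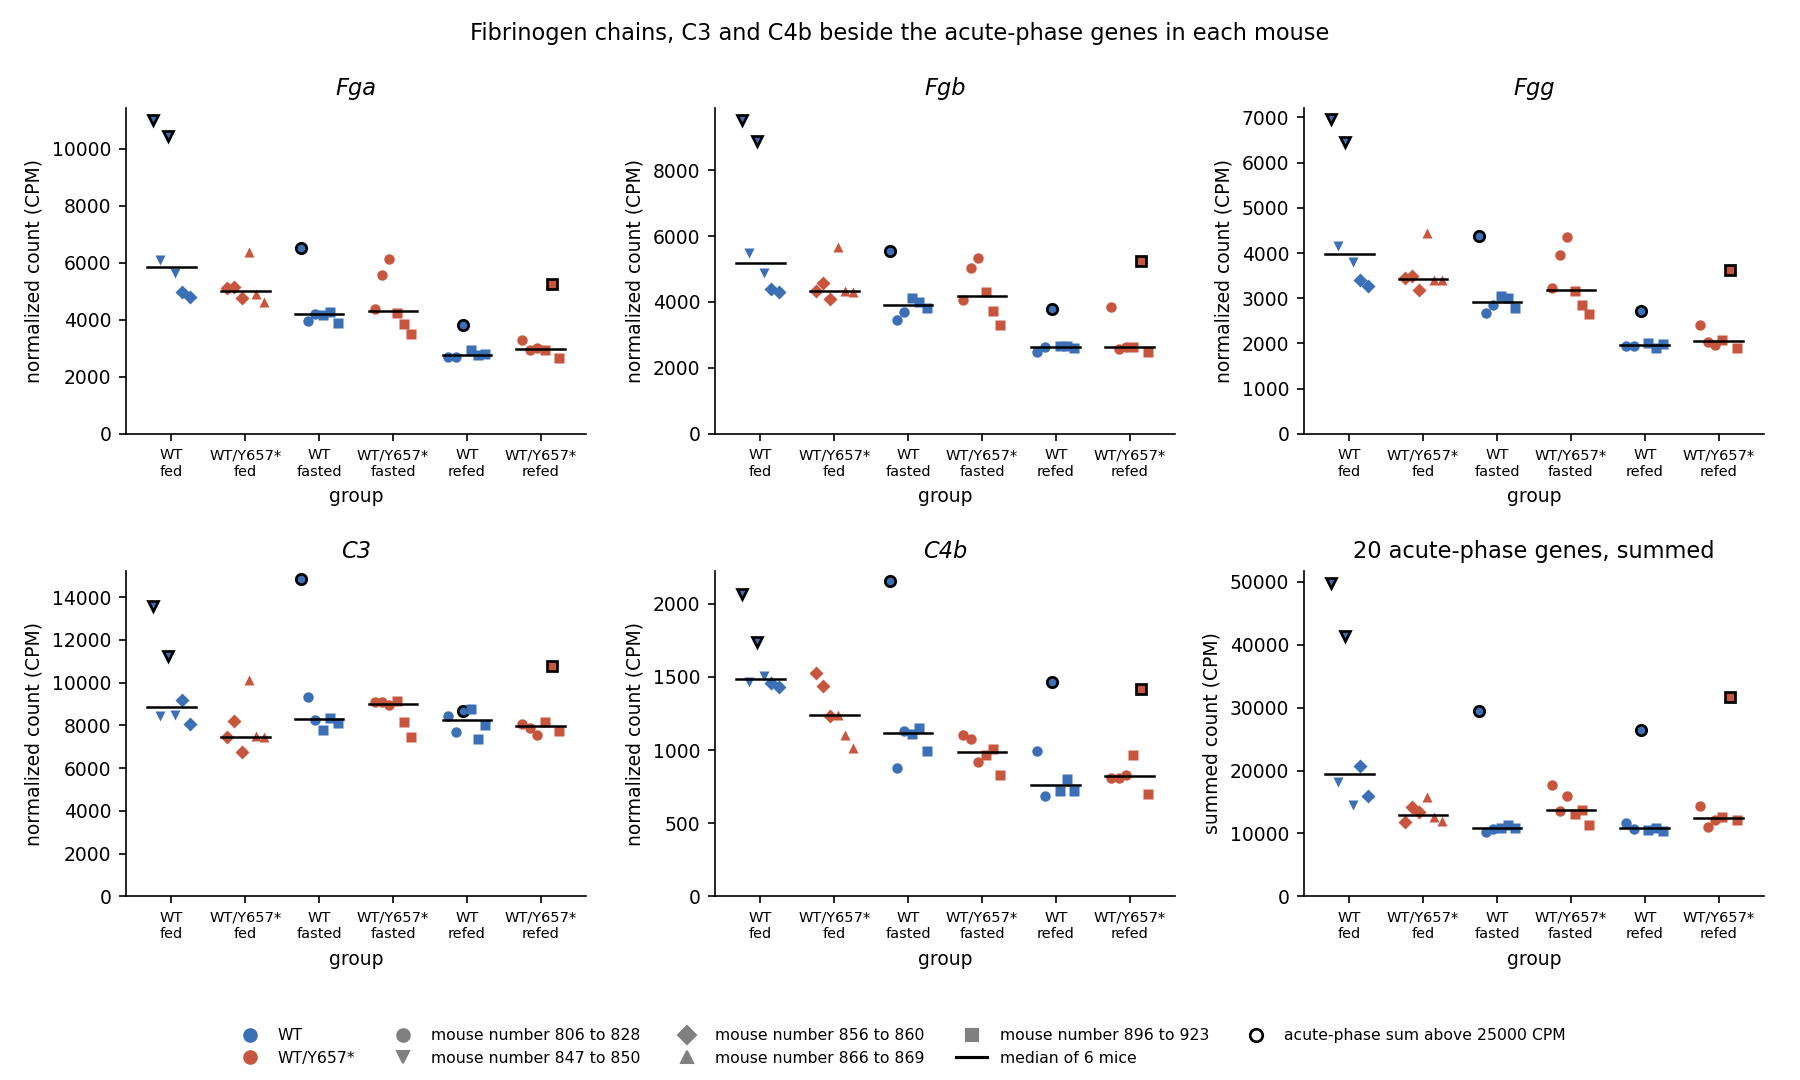
Normalized count (CPM, axes from 0) of Fga, Fgb, Fgg, C3 and C4b and the summed count of 20 acute-phase genes in each of the 36 mice by group, with the median of 6 mice as a line. Genotype is coloured, run of mouse numbers gives the shape, and black outlines mark the 5 mice with an acute-phase sum above 25000 CPM, which lead their groups in the fibrinogen panels.

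The fibrinogen promoters are shown because the 3 genes moved together, from RefSeq on GRCm38.p6 with matches to the same motifs in capitals. Fga lies at chr3:83025903-83026202 (plus strand), Fgb at chr3:83049814-83050113 (minus strand) and Fgg at chr3:83007474-83007773 (plus strand). Fga holds TTCCTGGAA and ATTAAC, Fgb TTCGAGGAA, CTGGGAA and ATTAAC, and Fgg CTGGGAA.
Fga: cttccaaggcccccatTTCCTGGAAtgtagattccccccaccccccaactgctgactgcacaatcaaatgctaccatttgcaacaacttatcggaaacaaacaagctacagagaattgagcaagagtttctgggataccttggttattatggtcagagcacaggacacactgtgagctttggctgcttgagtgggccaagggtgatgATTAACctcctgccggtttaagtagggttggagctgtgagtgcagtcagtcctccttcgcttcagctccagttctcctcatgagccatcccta
Fgb: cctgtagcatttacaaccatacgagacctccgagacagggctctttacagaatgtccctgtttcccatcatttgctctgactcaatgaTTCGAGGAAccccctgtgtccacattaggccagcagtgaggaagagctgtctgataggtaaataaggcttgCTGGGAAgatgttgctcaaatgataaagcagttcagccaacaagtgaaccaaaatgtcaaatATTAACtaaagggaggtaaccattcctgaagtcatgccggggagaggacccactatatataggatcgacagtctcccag
Fgg: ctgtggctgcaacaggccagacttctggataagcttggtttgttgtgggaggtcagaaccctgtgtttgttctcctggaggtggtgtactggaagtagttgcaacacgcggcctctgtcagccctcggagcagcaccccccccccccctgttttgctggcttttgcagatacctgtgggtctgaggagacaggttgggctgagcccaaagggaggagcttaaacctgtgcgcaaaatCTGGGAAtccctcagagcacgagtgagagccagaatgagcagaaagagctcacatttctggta

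F5, a cofactor of prothrombin cleavage, was lower in refed than in fasted WT mice (-0.38 ± 0.11, adjusted p = 0.00851), where WT/Y657* mice differed by -0.27 ± 0.11 (0.0639). Vwf fell with refeeding in both genotypes (-0.42 ± 0.14 and -0.53 ± 0.14), from medians of 14.8 and 13.6 CPM to 10.8 and 10.3 CPM, with overlap, and in WT not without ONF_WT_807 or ONF_WT_824. It is made by endothelium, and of 10 liver endothelial markers 4 were called lower with refeeding in WT and 4 in WT/Y657*, among them Stab2, the most abundant (-0.33 ± 0.07 and -0.48 ± 0.07), where 13.7% and 14.2% of all genes were lower. Their summed level ran from 463 to 524 CPM in fasted and 370 to 469 CPM in refed WT mice, and from 433 to 526 and 379 to 423 CPM in WT/Y657* mice. No endothelial marker was at 0, and their part in the Vwf values was not tested.

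Of the coagulation inhibitors Serpind1 changed most often. It was at a median of 617 CPM in fed WT mice (584 to 670), 488 CPM fasted (457 to 543) and 561 CPM refed (549 to 591), and in WT/Y657* mice at 594 CPM (574 to 600), 454 CPM (373 to 502) and 563 CPM (540 to 655). In both genotypes fasted mice overlapped neither fed nor refed mice. Refeeding raised it by 0.19 ± 0.07 in WT (adjusted p = 0.0281, lost without ONF_WT_807, ONF_WT_824, RF6_WT_828 or ONF_WT_920) and by 0.39 ± 0.07 in WT/Y657* (2.02e-05), and the difference between genotypes was not called (0.20 ± 0.10, adjusted p = 0.298). Serpinc1, antithrombin, fell with refeeding in WT (-0.23 ± 0.07, adjusted p = 0.00798) and differed by -0.14 ± 0.07 in WT/Y657*. Thbd, the thrombin receptor of endothelium, fell with refeeding in WT/Y657* mice (-0.75 ± 0.21, adjusted p = 0.00563) and not in WT (0.04 ± 0.21), a difference of -0.79 ± 0.30 that was not called (adjusted p = 0.162). It is a scarce transcript, at 2.63 to 8.54 CPM over all mice.

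All 3 genes of fibrinolysis were called lower with fasting in both genotypes, where 10.1% of all genes were called lower in both. Cpb2 was at a median of 360 CPM in fed WT mice (328 to 511), 221 CPM fasted (154 to 276) and 178 CPM refed (164 to 235). The WT/Y657* medians were 313 CPM (305 to 323), 228 CPM (208 to 272) and 179 CPM (163 to 238). Every fed WT/Y657* mouse lay below every fed WT mouse, the only one of the 48 members to separate the fed genotypes, and every fasted or refed mouse lay below every fed mouse of its genotype. The fed genotype difference of -0.35 ± 0.12 did not pass the test (adjusted p = 0.0851), which called 2.37% of all genes, and how many of all genes separate the fed genotypes was not counted. Cpb2 fell with fasting by 0.89 ± 0.12 in WT and 0.40 ± 0.12 in WT/Y657*, and this difference of 0.49 ± 0.16 was not called (adjusted p = 0.0812). Plg fell by 0.28 ± 0.08 and 0.35 ± 0.08, and Serpinf2 by 0.30 ± 0.11 (adjusted p = 0.035, lost without any of 6 of the 36 mice) and 0.43 ± 0.11. With refeeding Serpinf2 rose in WT/Y657* mice only (0.32 ± 0.11 against -0.03 ± 0.11, lost without any of 5 of the 36 mice), with a difference of 0.35 ± 0.16 (adjusted p = 0.264).

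Other genes of the same pathways, from lists written with earlier results of these data known, were counted in the same way. Of 24 tested further complement genes, 8 were called lower and 2 higher with fasting in WT, and 5 lower and 1 higher in WT/Y657*. Of all genes 17.5% and 17.7% were lower and 14.5% and 15.2% higher in these comparisons. C4a, a paralogue of C4b, fell by 2.75 ± 0.33 and 1.63 ± 0.32 with fasting and rose by 2.04 ± 0.33 and 2.02 ± 0.32 with refeeding. C1s, a partner of C1r, was lower in fasted WT/Y657* than WT mice (-0.35 ± 0.08, adjusted p = 0.00393), and Colec10, a collectin of the lectin route, was higher in fed (0.68 ± 0.12, adjusted p = 0.00335) and fasted WT/Y657* mice (0.59 ± 0.12, 0.0016). Colec11, its partner, was higher in fed WT/Y657* mice (0.76 ± 0.14), and C5ar1, a receptor of C5a, lower (-1.30 ± 0.35). C5ar1 is a scarce transcript, at a median of 1.58 CPM in fed WT (0.816 to 1.97) and 0.437 CPM in fed WT/Y657* mice (0.252 to 1.17). Apcs, which encodes serum amyloid P, fell in WT with fasting (-1.51 ± 0.37), and its response differed between genotypes (1.84 ± 0.52, adjusted p = 0.0369). Its level ran from 62.3 to 236 CPM in fed WT mice (median 77.1), a group that includes ALC_WT_847 and ALC_WT_849. Values of Apcs without the libraries high in acute-phase transcripts are not given. C1s had the smallest p between refed genotypes and was not called there (-0.23 ± 0.08, adjusted p = 0.357).

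Of 33 tested further coagulation genes, 11 were called lower and 4 higher with fasting in WT, 9 lower and 1 higher in WT/Y657*, where of all genes 17.5% and 17.7% were lower and 14.5% and 15.2% higher. Ggcx, the vitamin K-dependent carboxylase, fell by 0.60 ± 0.08 and 0.77 ± 0.08, and Lman1, the cargo receptor for factors V and VIII, by 0.76 ± 0.08 and 0.81 ± 0.08. With refeeding Lman1 rose by 0.51 ± 0.08 and 0.66 ± 0.08, and its partner Mcfd2 by 0.55 ± 0.07 and 0.46 ± 0.07. Mug2, a protease inhibitor, was lower in refed than fed mice (-1.14 ± 0.13 and -1.29 ± 0.13). By genotype Hgfac, an activator of hepatocyte growth factor, was lower in fasted WT/Y657* mice (-0.37 ± 0.08, adjusted p = 0.0011), as were Ggcx (-0.33 ± 0.08) and Hrg, histidine-rich glycoprotein (-0.32 ± 0.08). In fed mice Adamts13, which cleaves von Willebrand factor, was higher (0.76 ± 0.15, adjusted p = 0.00763) and Hrg lower (-0.32 ± 0.08), and F8 was higher (0.39 ± 0.10). Hgfac was the gene of this list whose fasting response differed between genotypes (-0.45 ± 0.11, adjusted p = 0.0113).

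Transcription factors and receptors known to control such genes in hepatocytes also changed, 17 of 17 on the list having been tested. Xbp1, a factor for secretory capacity, fell with fasting (-1.09 ± 0.11 in WT, -0.74 ± 0.11 in WT/Y657*) and rose with refeeding (0.68 ± 0.11 and 0.79 ± 0.11). Il1r1, the interleukin 1 receptor, fell with fasting in WT (-1.80 ± 0.22), and its response differed between genotypes by 2.05 ± 0.31 (adjusted p = 0.000568), as did that of Il6ra, an interleukin 6 receptor chain, by 1.01 ± 0.19 (0.00256) and that of Foxa2 by -1.11 ± 0.27 (0.0146). In fasted WT/Y657* against WT mice Nr3c1, the glucocorticoid receptor, was lower (-0.38 ± 0.07) and Cebpd higher (1.23 ± 0.24), and Foxa2 lower (-0.93 ± 0.19). Whether these changes bear on the members was not tested.

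Levels of other cell markers were as follows, and those of lymphocyte markers are not given. For stellate cells and fibroblasts the sum ran from 351 to 540 CPM in fed WT and 502 to 706.1 CPM in fed WT/Y657* mice, and Dcn, the most abundant, was the 1 of 10 markers called there (0.43 ± 0.12, adjusted p = 0.0407), where 2.37% of all genes were called. Adamts13, Colec10 and Colec11 were higher in the same fed comparison, and the part of these cells in their values was not tested. In refed against fed mice 5 of these 10 were called lower in each genotype, among them the collagen gene Col3a1 (-1.53 ± 0.26 in WT and -1.45 ± 0.26 in WT/Y657*), which also fell with fasting (-1.14 ± 0.26 and -1.27 ± 0.25). Of all genes 14.3% and 13.1% were lower in refed than fed mice. Of 10 neutrophil markers 3 were tested, and the sum was 34.1 CPM in RF6_MT_898, 26.6 in ALC_MT_869, 25.7 in RF6_WT_828 and 21.7 in ALC_MT_866, and at most 8.62 CPM elsewhere, with S100a9 the most abundant. Erythroid sums ran from 143 to 425 CPM over all mice (5 of 7 markers in the table, Hbb-b1 most abundant), cholangiocyte sums from 19.5 to 79.6 CPM (Spp1) and platelet sums from 1.55 to 6.09 CPM (2 of 7 tested, Itga2b). Hepatocyte sums ran from 80130 to 126100 CPM, and with fasting in WT 2 of the 10 markers were called higher and 3 lower, against 14.5% and 17.5% of all genes. No marker of these lists was at 0 in all libraries, and their part in the member values was not tested.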

How the data were processed

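The deposited values are expected counts per gene which, per the labels, the authors obtained from 50-base single-end stranded total RNA reads with Cuffdiff, SAMtools and featureCounts, versions not given. The labels name mm9, while the loci in the table fit GRCm38. Counts were rounded, filtered with filterByExpr over 6 groups and scaled by TMM, and tested with edgeR 4.0.16 (quasi-likelihood, robust, R 4.3.3) with 1 coefficient per group and all 36 libraries, adjusting p over 13945 genes. Ratios of chains were tested by exact permutation (Python 3.11.15, numpy 2.4.6). DESeq2 1.42.0 and the likelihood ratio test of edgeR were alternatives. Members and other lists were chosen with earlier results of these data known. Each genotype comparison names every called member. Each feeding comparison names the 5 largest rises and falls. The chains of C1q, C8 and fibrinogen, C3 and F2 are named in every comparison, and other lists give up to 3 genes of smallest p. Further members were chosen after their values were seen.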

Additional observations from a re-analysis of the deposited data

Results flagged for a closer look

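Some mice lay apart from the other 5 of their group by a gap test that marks about 1 in 20 groups by chance, and 36 of 288 combinations of member and group were marked. The share of all genes marked is not given, and the combinations are not independent, because the members share mice. ONF_WT_807 supplied 10 of the marks, RF6_WT_828 8, and RF6_MT_898 8 at the high end, all mice high in acute-phase genes. ONF_WT_807 was highest among fasted WT mice for C3 (14840 CPM), C4b (2153), C9 (649.1), Cfb (1960), Cfi (783.3), Fga (6538), Fgb (5543), Fgg (4376), Hc (1879) and Serping1 (802.2). RF6_WT_828 was highest among refed WT mice for C1qb (51.3), C1qc (52.64), C4bp (616), Cfp (28.84), Cpb2 (234.6), Fga (3821), Fgb (3783) and Fgg (2708). RF6_MT_898 was highest among refed WT/Y657* mice for C1qb (65.53), C3 (10780), C4b (1420), C8a (812.6), Cfp (35.75), Fga (5269), Fgg (3626) and Vtn (2402), and lowest for Proc (310.4).

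ALC_MT_866 was highest among fed WT/Y657* mice for Cfi (860.5), Fga (6377), Fgb (5663) and Fgg (4452), ALC_MT_858 for F9 (198.1) and ALC_MT_869 for F12 (483.8). ONF_MT_806 was highest among fasted WT/Y657* mice for C9 (643.8) and Hc (1488), and ALC_WT_849 among fed WT mice for C1qc (41.44). Apart from single mice, the fasting response of C6 differed between genotypes, by 1.024 on the log2 scale in edgeR.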

How the results depend on the processing

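Between fed genotypes 2 members were called. The count was 1 with library size as the only scaling, and 0 with runs of mouse numbers as a term, with only the groups compared, without the 5 libraries high in acute-phase genes, and without the 3 fed WT/Y657* mice of the highest numbers. Leaving out single mice gave 0 to 5. Between fasted genotypes 7 were called, 4 with library size alone, 4 without a filter, 0 with only the groups compared, and 2 to 8 without single mice. The genotype difference of fasting, 1 call, was 0 without those 3 fed mice and 1 to 4 without single mice. That of refeeding, 0 calls, was 1 by DESeq2, by the likelihood ratio test and with the runs as a term, and 0 to 1 without single mice. Without the 3 fed mice the log2 fold change of Mbl2 in fasted against fed WT/Y657* mice reversed to 0.1401 from -0.58. The 2 called ratios became 0 to 3 without single mice. Shares of all genes called under these settings are not given.

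Leaving out the 5 libraries and leaving out the 3 mice were settings added after the values were seen. No paired analysis was possible because no mouse number is shared between groups. The term for runs was not used in comparisons with fed mice, whose runs hold no fasted or refed mouse. Of 10168 fold changes compared across settings, 5894 were called in the main fit, of which 1 reversed and 404 were no longer called. The other 4274 were not called, and of these 17 were newly called and 108 had the other sign without a call. Calls that held under every setting and without each mouse were 17 of 21 for fasted against fed in WT and 14 of 20 in WT/Y657*, 5 of 16 and 7 of 13 for refed against fasted, 23 of 27 and 13 of 25 for refed against fed, and 0 in the genotype comparisons.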
